A study of Mus musculus with 6 samples.

Results

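The genes described here encode the transporters and channels that carry chloride, bicarbonate and sodium across intestinal epithelial cells. They were chosen by symbol: every gene of the Slc4a, Slc9a, Slc12a, Slc26a, Atp1a, Atp1b and Scnn1 families, and Cftr. The choice used no measured value and found 52 of the 18159 genes in the table. By function 3 of the 52 are not transporters, since Slc9a3r1 and Slc9a3r2 encode the scaffold proteins NHERF1 and NHERF2 and Slc4a1ap encodes an adaptor protein.

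The absorbing and secreting cells of the gut share one engine, the sodium-potassium pump of the basolateral membrane, whose sodium gradient drives the other carriers. Absorption of salt without a net charge pairs an apical sodium-proton exchanger (NHE3 or NHE2) with an apical chloride-bicarbonate exchanger (DRA or PAT1), and electrogenic sodium uptake uses the epithelial sodium channel ENaC. Secretion runs the other way, with chloride entering from the blood side through the cotransporter NKCC1 and leaving through the apical channel CFTR, which also passes bicarbonate.

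Poly(A) RNA of intestinal epithelial cells was sequenced in 6 libraries. A group of 3 came from mice labelled Git2-knockout, in which the gene for a scaffold protein that switches off Arf GTPases is targeted, and 3 came from wild-type mice. The titles say knockout and the genotype field of the same libraries says knockdown, and which part of Git2 was altered is not stated in the labels. Per the series text all samples are enteroids, which are cultured epithelial organoids, and the mice were 12 days old, while the titles name epithelial cells only. The labels do not say whether libraries sharing a genotype were made from different animals or cultures. The p-values therefore reflect the spread among these libraries alone, and that spread may be technical.

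The Git2-knockout libraries held 16284414 to 16837158 estimated reads and the wild-type libraries 18753649 to 19106581. Git2 itself was at 17.4, 15.5 and 16.8 CPM (reads per 1000000, scaled by TMM factors) in Git2-knockout libraries and at 22.2, 23.7 and 22.7 CPM in wild-type libraries, a log2 fold change of -0.47 (SE 0.07, Benjamini-Hochberg adjusted p = 4.44e-05 by edgeR). All 9 epithelial markers listed were measured, Epcam among them, and their summed level was 9680 to 9936 CPM in Git2-knockout libraries and 10982 to 11514 CPM in wild-type libraries. Other cell types moved with the group too: summed fibroblast markers were at 126 to 130 CPM in Git2-knockout and 40.9 to 46.3 CPM in wild-type libraries, endothelial markers at 41.8 to 46.4 CPM in Git2-knockout and 18.0 to 19.3 CPM in wild-type, smooth muscle and pericyte markers at 22.9 to 24.4 CPM in Git2-knockout and 8.98 to 9.61 CPM in wild-type, erythroid markers at 73.9 to 84.3 CPM in Git2-knockout and 22.8 to 24.5 CPM in wild-type, macrophage markers at 127 to 130 CPM in Git2-knockout and 228 to 231 CPM in wild-type, and B cell markers at 5.005 to 6.13 CPM in Git2-knockout and 13.3 to 14.6 CPM in wild-type. Of the tested markers, 7 of 7 fibroblast, 7 of 7 endothelial, 6 of 7 smooth muscle and 4 of 5 erythroid genes rose, 2 of 7 macrophage genes rose and 1 fell, 4 of 4 B cell genes fell, and 0 of 4 nerve and glia genes passed. The lower macrophage sum was thus not shared by most of its 7 markers, whose median log2 fold change was 0.14. Nerve and glia markers summed to 215 to 224 CPM in Git2-knockout libraries and 202 to 210 CPM in wild-type libraries, nearly all of it Ret, while Sox10 had 0 to 2 reads per library. The part of these cell types in the results below was not tested. In bulk RNA, fewer cells of a type and less RNA per cell cannot be told apart.

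Per transcript length, the NHERF1 scaffold was among the most abundant. In TPM (transcripts per 1000000, scaled by length), Slc9a3r1 averaged 930 ± 25.1 TPM in Git2-knockout libraries and 1165 ± 22.3 TPM in wild-type libraries (SD, n = 3 each), and its ranges lay apart. Lower in the order came Atp1b1, the main beta subunit that carries the pump to the membrane (341 ± 13.1 TPM in Git2-knockout, 337 ± 2.76 in wild-type), Slc4a2, the basolateral chloride-bicarbonate exchanger AE2 (117 ± 5.13 TPM in Git2-knockout, 108 ± 1.32 in wild-type), and Slc12a2, which encodes NKCC1 (115 ± 6.45 TPM in Git2-knockout, 88.5 ± 3.17 in wild-type). Of neighbours in that order, Slc4a2 and Slc12a2 overlapped in Git2-knockout libraries, and their ranges were apart in wild-type libraries. Across both groups 22 of the 52 genes averaged at least 10 TPM, 5 of them at least 100 TPM, and 24 averaged below 1 TPM.

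**Figure D1:**
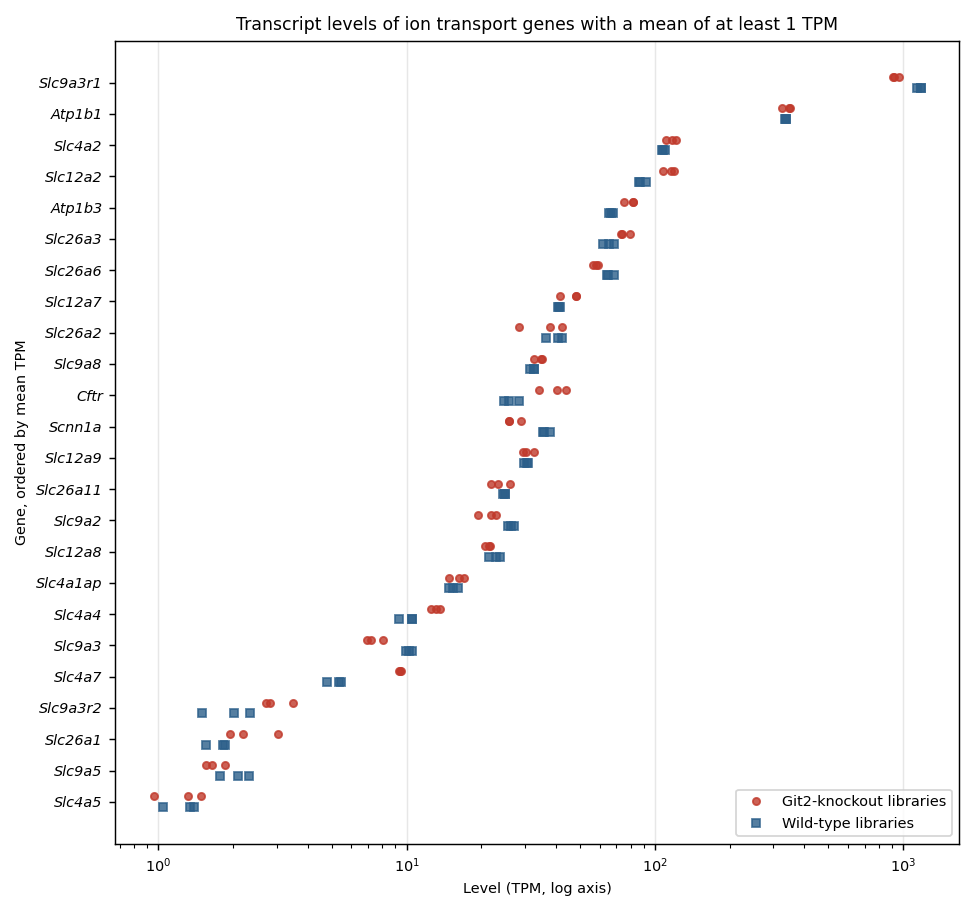
Level in TPM (log axis) of ion transport genes averaging at least 1 TPM, with 1 point per library, red circles for the 3 Git2-knockout and blue squares for the 3 wild-type libraries. The scaffold gene Slc9a3r1 lies near 1000 TPM, and Cftr and Slc4a7 have all red points to the right of the blue ones.

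Of the 52 genes 42 had enough reads to test. With edgeR's quasi-likelihood test and a Benjamini-Hochberg threshold of 0.05, 12 of them rose (28.6%), 10 fell (23.8%) and 20 did not pass. Over all 13558 genes tested 29.6% rose and 27.4% fell, so the share of transport genes called was close to the background. In 26 of the 42 (61.9%) the CPM ranges of Git2-knockout and wild-type libraries lay apart, against 62.9% of all genes. The sizes were modest: the median absolute log2 fold change of the 22 called genes was 0.47, 8 of them reached 0.5 and 1 reached 1. The median log2 fold change of the 42 was -0.01, beside 0.02 over all genes. Without replicate 2 of the Git2-knockout libraries 8 genes rose and 11 fell. Over all genes 3548 then rose and 3518 fell, against 4013 and 3712 with every library. Without replicate 1 of the Git2-knockout libraries 11 transport genes rose and 12 fell, and over all genes 4082 rose and 4261 fell.

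By read counts the apical exchangers Slc9a3, Slc9a2 and Slc26a6, the channel subunit Scnn1a and the pump beta subunit Atp1b1 were lower in Git2-knockout libraries, and Cftr, Slc12a2, Slc4a4 and Slc4a7 were higher. Several of these directions depended on how reads were scaled. Fold changes over all genes followed transcript length and GC content, and after removal of both trends 8 transport genes rose (19%) and 14 fell (33.3%), against 21.3% and 21.1% of all genes. On log2(TPM + 1), tested with limma-trend, 15 rose (35.7%) and 5 fell (11.9%), against 42.4% and 13.9% of all genes, whose median then lay at 0.14. Calls in the same direction under all 19 alternatives included those of Slc9a3, Slc9a2, Slc9a3r1, Scnn1a and Slc26a6, which were lower in Git2-knockout libraries.

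**Figure D2:**
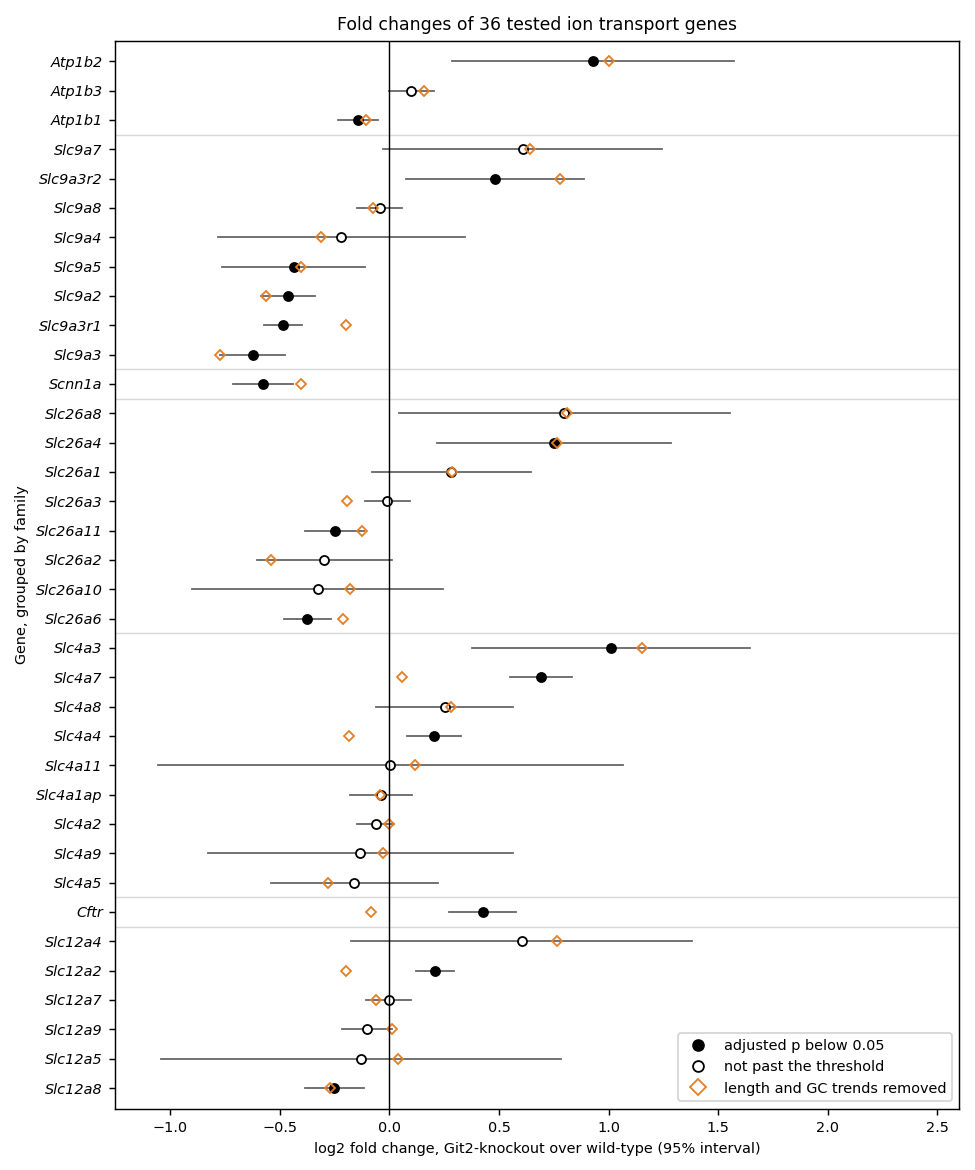
Log2 fold change (Git2-knockout over wild-type) of 36 of the tested genes by family, with 95% intervals, where filled circles passed the edgeR threshold, open circles did not, and orange diamonds show the value with length and GC trends removed. Slc9a3, Slc9a2 and Scnn1a stay left of 0 on both scales, while the diamonds of Cftr, Slc12a2 and Slc4a4 lie left of 0 and their circles right of it.

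Of the beta subunits of the sodium-potassium pump, Atp1b1 was slightly lower by read counts, and Atp1b3 did not pass by read counts but was called higher under 5 alternatives. Atp1b1 was at 405, 381 and 364 CPM in Git2-knockout libraries and at 421, 419 and 428 CPM in wild-type libraries. It fell by 0.14 on a log2 scale (SE 0.04, Benjamini-Hochberg adjusted p = 0.00978 by edgeR), a call lost without replicate 3 of the Git2-knockout libraries (adjusted p = 0.068) or on log2(FPKM + 1) (0.0681), and lay at 0.02 on the TPM scale. Atp1b3, a second beta subunit of many tissues, was at 66.1, 68.7 and 69.8 CPM in Git2-knockout and at 63.1, 62.4 and 65.4 CPM in wild-type libraries (log2 fold change 0.10, Benjamini-Hochberg adjusted p = 0.0895 by edgeR). It passed at 0.14 with library totals (Benjamini-Hochberg adjusted p = 0.0246 by edgeR), at 0.20 with the length trend removed (0.000604) and at 0.16 with both trends removed (0.00397). With limma-trend it passed at 0.26 on log2(TPM + 1) (adjusted p = 0.000864) and at 0.13 on log2(FPKM + 1) (0.0222).

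Atp1b2, a glial beta subunit, was at 0.910, 1.11 and 0.942 CPM in Git2-knockout and 0.484, 0.481 and 0.585 CPM in wild-type libraries. It rose by 0.93 (Benjamini-Hochberg adjusted p = 0.0158 by edgeR), with no overlap, though no library exceeded 1.11 CPM. DESeq2 did not call it (Benjamini-Hochberg adjusted p = 0.108), and the call was lost without Git2-knockout replicate 2 (adjusted p = 0.068) or wild-type replicate 2 (0.0534). The smooth muscle and pericyte markers, at 22.9 to 24.4 CPM in Git2-knockout against 8.98 to 9.61 CPM in wild-type libraries, moved with it. Fibroblast, endothelial and erythroid markers were also higher in Git2-knockout libraries, while 0 of 4 tested nerve and glia genes passed. The part of these cell types in the result was not tested.

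Of the sodium-proton exchangers, the apical NHE3 and NHE2 were lower in Git2-knockout libraries, while Slc9a8, described below, did not pass by read counts. Slc9a3, which encodes NHE3, the main route of sodium absorption across the brush border, was at 16.5, 18.3 and 16.5 CPM in Git2-knockout libraries and at 26.1, 27.2 and 25.8 CPM in wild-type libraries. Every Git2-knockout library lay below every wild-type library. It fell by 0.62 on a log2 scale (SE 0.07, Benjamini-Hochberg adjusted p = 1.49e-06 by edgeR), to 64.9% of wild-type (95% interval 58.5% to 71.8%), and by 0.77 with length and GC trends removed. Slc9a2, which encodes the apical exchanger NHE2, was at 30.4, 34.1 and 33.2 CPM in Git2-knockout libraries and at 43.2, 46.0 and 45.3 CPM in wild-type libraries. It fell by 0.46 (SE 0.06, Benjamini-Hochberg adjusted p = 5.67e-06 by edgeR), and by 0.56 with both trends removed. Epithelial markers were lower in the same libraries, 7 of 9 by read counts, with a median log2 fold change of -0.26, and 4 of 9 with both trends removed, where 2 rose and the median was -0.02, and their part in these falls was not tested.

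Of other exchangers of the family, Slc9a8 did not pass by read counts and Slc9a5 was lower. Slc9a8, which encodes NHE8, an exchanger prominent in the gut of young rodents, was at 65.8, 69.1 and 70.8 CPM in Git2-knockout and 69.1, 70.7 and 72.5 CPM in wild-type libraries (log2 fold change -0.05, Benjamini-Hochberg adjusted p = 0.451 by edgeR). Its 95% interval in percent of wild-type ran from 90.2% to 104%, and it passed as lower with the length trend removed (-0.19, Benjamini-Hochberg adjusted p = 0.000842 by edgeR). Slc9a5, known best from neurons, fell by 0.44 at low levels, at 3.28, 2.64 and 2.94 CPM in Git2-knockout and 4.41, 4.06 and 3.51 CPM in wild-type libraries (Benjamini-Hochberg adjusted p = 0.0237 by edgeR), a call lost without Git2-knockout replicate 2 (0.0816), wild-type replicate 1 (0.0936) or wild-type replicate 2 (0.0588). It was not called by DESeq2 (adjusted p = 0.0974), with the GC trend removed (-0.26, 0.183) or on the TPM scale (-0.19, 0.135).

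The scaffold that anchors NHE3 and CFTR at the brush border was lower as well. Slc9a3r1 was at 813, 745 and 747 CPM in Git2-knockout libraries and at 1080, 1053 and 1095 CPM in wild-type libraries, with no overlap. It fell by 0.49 (SE 0.04, Benjamini-Hochberg adjusted p = 7.02e-08 by edgeR), to 71.4% of wild-type (95% interval 67.3% to 75.8%), and by 0.20 with both trends removed. Its relative Slc9a3r2 had 3.16, 2.52 and 2.47 CPM in Git2-knockout and 1.56, 2.19 and 2.08 CPM in wild-type libraries, a log2 fold change of 0.48 (SE 0.19, Benjamini-Hochberg adjusted p = 0.042 by edgeR). That call was lost when any library but wild-type replicate 2 was left out, with adjusted p between 0.0565 and 0.189, with the replicate number as a block (adjusted p = 0.0678), with upper quartile scaling (0.0541) and with DESeq2 (0.163). With the GC trend removed the rise was 0.74 (Benjamini-Hochberg adjusted p = 0.00502 by edgeR), and with both trends removed 0.78 (0.00184).

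Of the 3 ENaC subunits only Scnn1a had enough reads to test, and sodium uptake itself was not measured. Scnn1a, the alpha subunit, was at 34.9, 29.9 and 29.8 CPM in Git2-knockout libraries and at 49.2, 45.7 and 46.2 CPM in wild-type libraries, and the ranges did not overlap. It fell by 0.58 (SE 0.06, Benjamini-Hochberg adjusted p = 1.64e-06 by edgeR), to 67.1% of wild-type (95% interval 61.0% to 73.8%), and by 0.40 with both trends removed. The beta and gamma subunits, Scnn1b and Scnn1g, had 0 to 5 estimated reads in every library and were not tested, and at this depth a difference between the groups was not detectable. Scnn1a made up 99.0% to 99.6% of the TPM of the 3 subunits in Git2-knockout libraries and 99.3% to 99.7% in wild-type libraries.

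Among apical anion exchangers, PAT1 was lower and DRA depended on the scale. Slc26a6, which encodes PAT1, a chloride-bicarbonate and oxalate exchanger, was at 70.5, 66.9 and 71.1 CPM in Git2-knockout libraries and at 87.0, 88.8 and 94.4 CPM in wild-type libraries. It fell by 0.37 (SE 0.05, Benjamini-Hochberg adjusted p = 9.48e-06 by edgeR), and by 0.21 with both trends removed, with no overlap between the groups. Slc26a3, which encodes DRA, the exchanger lost in congenital chloride diarrhoea, was at 93.4, 86.2 and 89.3 CPM in Git2-knockout and 93.2, 90.4 and 87.0 CPM in wild-type libraries. These ranges overlapped (log2 fold change -0.01, Benjamini-Hochberg adjusted p = 0.886 by edgeR), with a 95% interval of 92.6% to 107% of wild-type. It passed in opposite directions under other scalings, at -0.19 with both trends removed (Benjamini-Hochberg adjusted p = 0.000183 by edgeR) and at 0.20 on the TPM scale (Benjamini-Hochberg adjusted p by limma-trend = 0.00585). Within the Slc26a family, Slc26a3 took 36.5% to 41.1% of the TPM in Git2-knockout libraries and 31.7% to 33.7% in wild-type libraries, and Slc26a6 took 28.1% to 29.9% in Git2-knockout and 31.6% to 35.0% in wild-type libraries.

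Of Slc26a2 and Slc26a11, sulfate carriers of this family, Slc26a11 was lower by read counts and Slc26a2 did not pass. Slc26a2, the sulfate transporter DTDST, was at 49.2, 70.1 and 63.5 CPM in Git2-knockout and 78.8, 76.5 and 69.3 CPM in wild-type libraries, with a single Git2-knockout library overlapping (log2 fold change -0.30, Benjamini-Hochberg adjusted p = 0.0918 by edgeR). Several alternatives called it lower: without Git2-knockout replicate 1 the log2 fold change was -0.19 (Benjamini-Hochberg adjusted p = 0.00395 by edgeR), without replicate 2 it was -0.42 (0.0052), and DESeq2 called it with all libraries (Benjamini-Hochberg adjusted p = 0.00265). It also passed at -0.49 with the GC trend removed (Benjamini-Hochberg adjusted p = 0.0136 by edgeR) and at -0.54 with both trends removed (0.0358). Slc26a11, a sulfate and anion carrier, fell by 0.25, at 27.5, 25.3 and 29.4 CPM in Git2-knockout and 32.5, 32.1 and 33.1 CPM in wild-type libraries (SE 0.06, Benjamini-Hochberg adjusted p = 0.00306 by edgeR). It did not pass at -0.13 with both trends removed (adjusted p = 0.078), at -0.12 with the GC trend removed (0.121) or at -0.06 on the TPM scale (0.486). Slc26a4, which encodes pendrin, rose by 0.75 at low levels, at 1.46, 1.82 and 1.24 CPM in Git2-knockout and 0.807, 0.908 and 0.958 CPM in wild-type libraries (Benjamini-Hochberg adjusted p = 0.0185 by edgeR). Its call was lost without Git2-knockout replicate 2 (adjusted p = 0.112) or wild-type replicate 1 (0.061), and DESeq2 did not call it (0.105).

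Basolateral bicarbonate carriers were led by AE2, which did not pass. Slc4a2 was at 201, 211 and 206 CPM in Git2-knockout libraries and 216, 215 and 214 CPM in wild-type libraries (log2 fold change -0.06, Benjamini-Hochberg adjusted p = 0.188 by edgeR). These ranges were apart by a narrow margin, and the gene passed in opposite directions at -0.17 with the length trend removed and at 0.15 with the GC trend removed. It took 73.3% to 73.5% of the Slc4a TPM in Git2-knockout libraries and 75.5% to 76.9% in wild-type libraries. Slc4a7, the electroneutral sodium-bicarbonate cotransporter NBCn1, was at 30.9, 29.8 and 29.9 CPM in Git2-knockout libraries and at 19.04, 19.7 and 17.4 CPM in wild-type libraries. All Git2-knockout values lay above the wild-type range, with a log2 fold change of 0.69 (SE 0.07, Benjamini-Hochberg adjusted p = 3.17e-07 by edgeR), or 162% of wild-type (95% interval 147% to 178%). The rise was 0.42 with the length trend removed and 0.25 with the GC trend removed, and with both removed the value was 0.06 and did not pass (adjusted p = 0.479). Slc4a4, the electrogenic cotransporter NBCe1, was at 42.6, 42.8 and 45.0 CPM in Git2-knockout and 38.7, 39.5 and 35.0 CPM in wild-type libraries. It rose by 0.20 (SE 0.06, Benjamini-Hochberg adjusted p = 0.00708 by edgeR), lay at 0.06 with the GC trend removed (adjusted p = 0.379) and at -0.19 with both trends removed (0.00548), and lost its call without Git2-knockout replicate 3 (0.06) or wild-type replicate 3 (0.0593). Slc4a3, which encodes the exchanger AE3 of heart and brain, was at 0.971, 1.055 and 1.12 CPM in Git2-knockout and 0.430, 0.587 and 0.532 CPM in wild-type libraries. It rose by 1.01 on a log2 scale (SE 0.30, Benjamini-Hochberg adjusted p = 0.00877 by edgeR), and DESeq2 did not call it (adjusted p = 0.0723).

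The secretory pair was higher by read counts. Cftr was at 97.3, 119 and 111 CPM in Git2-knockout libraries and at 86.8, 80.2 and 76.7 CPM in wild-type libraries, without overlap. It rose by 0.42 (SE 0.07, Benjamini-Hochberg adjusted p = 0.000189 by edgeR), to 134% of wild-type (95% interval 121% to 149%). In TPM it averaged 39.5 ± 4.90 in Git2-knockout and 26.3 ± 1.90 in wild-type libraries (SD, n = 3 each). The rise was 0.19 with the length trend removed, 0.08 with the GC trend removed (adjusted p = 0.375), and the value was -0.08 with both removed (Benjamini-Hochberg adjusted p = 0.164 by edgeR). Slc12a2 was at 316, 337 and 331 CPM in Git2-knockout libraries and at 293, 280 and 279 CPM in wild-type libraries, again apart. It rose by 0.21 (SE 0.04, Benjamini-Hochberg adjusted p = 0.000395 by edgeR), lay at -0.04 and -0.00 with 1 trend removed, of length and of GC, and fell by 0.20 with both removed (adjusted p = 4.12e-06). The rise of Cftr was thus not called once the GC trend or both trends were removed, and Slc12a2 was called in the opposite direction with both removed.

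Of Slc12a7 and Slc12a8, which belong to the same family as NKCC1, Slc12a8 was lower and Slc12a7 did not pass. Slc12a7, which encodes the potassium-chloride cotransporter KCC4, was at 95.8, 106 and 107 CPM in Git2-knockout and 101, 104 and 105 CPM in wild-type libraries (log2 fold change -0.00, Benjamini-Hochberg adjusted p = 0.957 by edgeR), and it passed at -0.18 with the length trend removed and at 0.15 with the GC trend removed or on the TPM scale. Slc12a8, a distant member of the family, fell by 0.25, at 27.8, 26.7 and 27.7 CPM in Git2-knockout and 30.4, 32.5 and 34.9 CPM in wild-type libraries (SE 0.06, Benjamini-Hochberg adjusted p = 0.00285 by edgeR). On the TPM scale it lay at -0.09 and did not pass (adjusted p = 0.235).

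**Figure D3:**
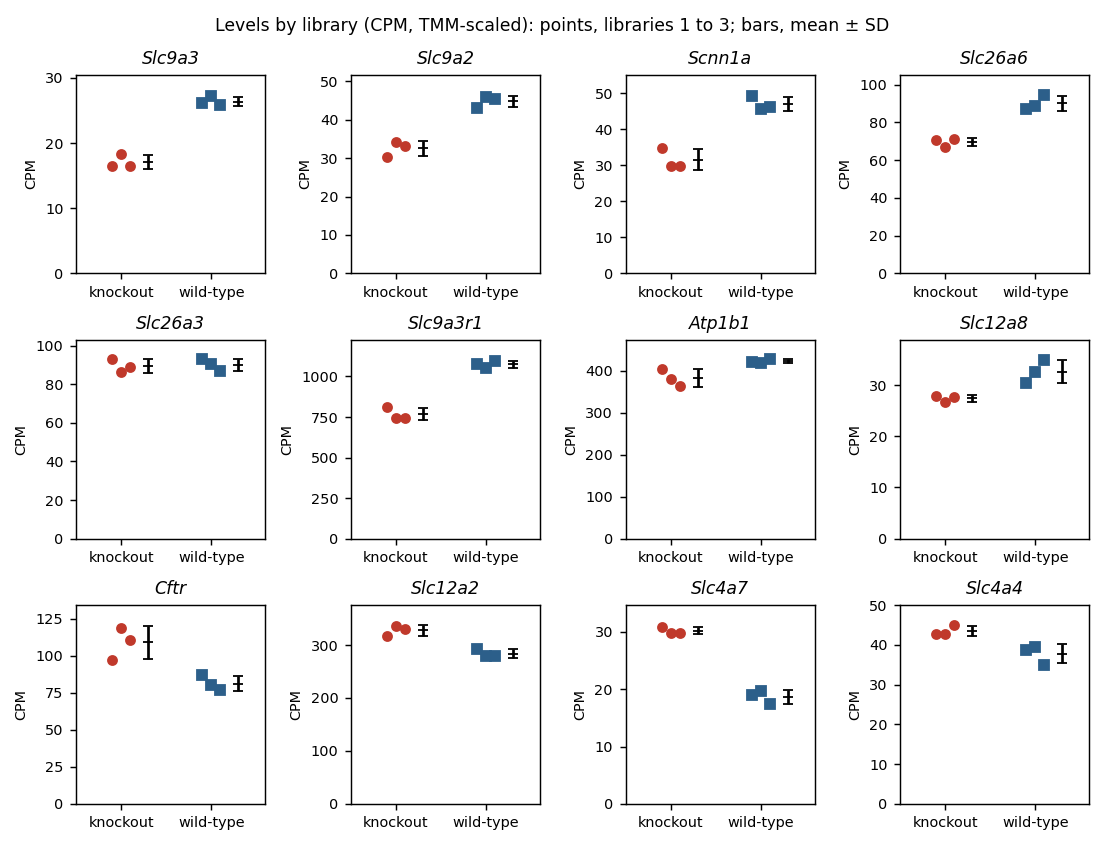
CPM (TMM-scaled) of 12 transport genes, with 1 point per library, red circles for Git2-knockout on the left and blue squares for wild-type on the right, and bars for the mean ± SD of 3 libraries. The groups lie apart in every panel but Slc26a3, where 86.2 to 93.4 CPM in Git2-knockout libraries overlaps 87.0 to 93.2 CPM in wild-type libraries.

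The rises and falls of the better expressed genes went with transcript length. Taking the 28 transport genes that had a length and averaged 1 or more on the log2 CPM scale, the fold change had a Pearson r of 0.42 and a Spearman rho of 0.43 with the log of the length implied by counts and FPKM, and over 29 genes -0.41 and -0.38 with GC content. Over all genes the same values were 0.46 and 0.53 (11620 genes) and -0.49 and -0.58 (11641 genes). These are correlations across genes measured in the same 6 libraries, given as a description, and genes are not independent replicates. Among the longest transcripts were Slc4a4 (7530 bases), Slc4a7 (7275), Slc12a2 (6491) and Cftr (6257), all higher in Git2-knockout libraries by read counts. Slc9a3, with 5225 bases and 50.9% GC, went against the length trend. Slc9a3r1 was the shortest of those named here, with 1869 bases and 58.5% GC, and Scnn1a had 2636 bases and 56.8% GC. The cause of the trend was not tested.

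**Figure D4:**
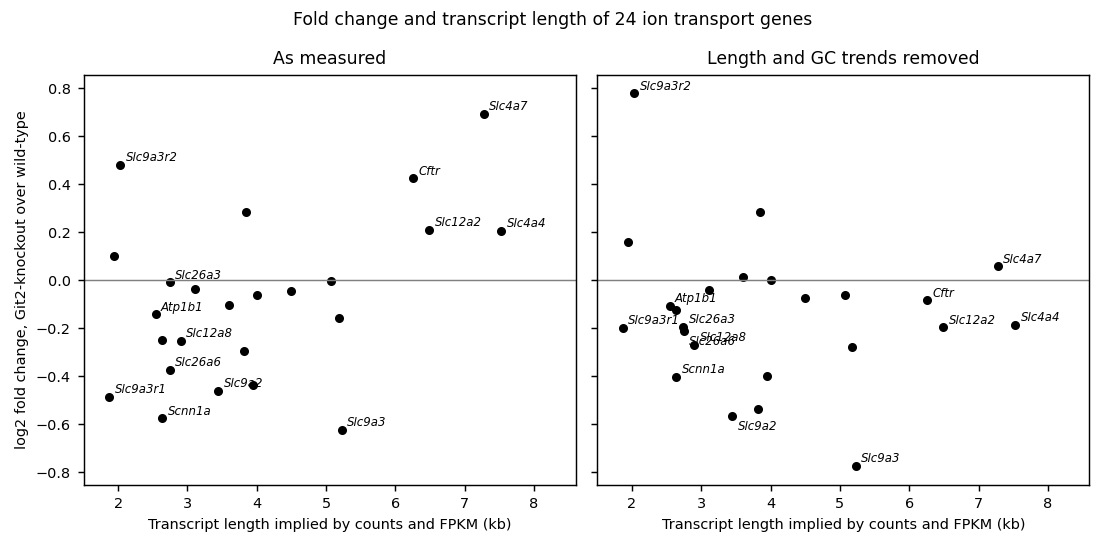
Log2 fold change (Git2-knockout over wild-type) against the transcript length in kilobases implied by counts and FPKM, for 24 of the transport genes averaging 1 or more in log2 CPM, as measured on the left and with length and GC trends removed on the right. Slc4a7 and Cftr, at 0.69 and 0.42 on the left, lie at 0.06 and -0.08 on the right, while Slc9a3 stays lowest at -0.62 and -0.77.

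The 250 bases upstream of Slc9a3 and Cftr are shown because the main absorptive exchanger and the main secretory channel moved in opposite directions by read counts. They come from RefSeq on GRCm38.p6, both on the plus strand, at chr13:74121163-74121412 for Slc9a3 and chr6:18170437-18170686 for Cftr, and capitals mark the GC box GGGCGG read on either strand.
Slc9a3: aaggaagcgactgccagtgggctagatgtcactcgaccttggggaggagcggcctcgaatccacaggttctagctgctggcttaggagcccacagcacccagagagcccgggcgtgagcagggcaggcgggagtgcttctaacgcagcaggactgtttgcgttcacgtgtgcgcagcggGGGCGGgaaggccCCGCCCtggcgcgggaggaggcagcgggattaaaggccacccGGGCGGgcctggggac
Cftr: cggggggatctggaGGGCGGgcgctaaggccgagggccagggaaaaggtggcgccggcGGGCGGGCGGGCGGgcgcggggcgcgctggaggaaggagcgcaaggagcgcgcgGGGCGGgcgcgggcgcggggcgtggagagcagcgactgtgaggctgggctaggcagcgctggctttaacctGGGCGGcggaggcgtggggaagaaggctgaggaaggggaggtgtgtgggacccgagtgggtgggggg
The Slc9a3 window held 3 GC boxes at 67.6% GC, and the Cftr window held 6 at 76.4% GC, overlapping occurrences counted. Neither window held the letters CCAAT on either strand. Of the 35 transport genes with an upstream window in the table, 20 (57.1%) held a GC box and 12 (34.3%) a CCAAT. The shares were 32.9% and 34.5% of 27025 windows, a wider gene set than the 18159 genes measured here. Median GC content was 61.2% in the windows of the transport genes and 52.0% in all windows. The part of GC content in the share with a GC box was not tested. A match describes letters and is not a shown binding site.

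Among the low-expressed transport genes that were tested more rose than fell, as among low genes in general. The read filter asks for enough reads in 3 libraries, so a low gene can be tested through 1 group alone. Atp1b2 had 15, 19 and 16 estimated reads in Git2-knockout and 9, 9 and 11 in wild-type libraries. Slc4a3 had 16, 18 and 19 in Git2-knockout and 8, 11 and 10 in wild-type libraries. The balance of rises and falls among low genes is therefore partly set by the filter. Of the 13 tested genes averaging below 1 in log2 CPM, 5 rose (38.5%) and 0 fell, beside 24.7% and 6.69% of all 1735 such genes. Atp1b2, Slc26a4 and Slc4a3 were among those that rose. DESeq2 called none of the 5, and a filter of 5 CPM in 3 libraries removed them. Of the 29 genes at or above that level 7 rose (24.1%) and 10 fell (34.5%), beside 30.3% and 30.4% of 11823 genes. Tested genes with no call also included Slc4a5, Slc4a8, Slc4a9, Slc4a11, Slc4a1ap, Slc9a4, Slc9a7, Slc12a4, Slc12a5, Slc12a9, Slc26a1, Slc26a8 and Slc26a10, between -0.33 and 0.80 on the log2 scale. Of these, Slc12a4 passed without Git2-knockout replicate 1 (0.90, Benjamini-Hochberg adjusted p = 0.0314 by edgeR), and Slc12a9 without Git2-knockout replicate 1 (-0.13, 0.0376), without replicate 2 (-0.16, 0.0303) or with the length trend removed (-0.18, 0.00421).

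The 10 genes not tested had 0 to 13 estimated reads per library. They were Atp1a4, Scnn1b, Scnn1g, Slc12a3, Slc26a5, Slc26a7, Slc26a9, Slc4a1, Slc4a10 and Slc9a9, among them the sodium-chloride cotransporter of the kidney (Slc12a3) and the red cell exchanger AE1 (Slc4a1). At this depth a difference in any of the 10 was not detectable. Slc4a1 stayed at 3 reads or fewer in every library although the erythroid markers summed to 73.9 to 84.3 CPM in Git2-knockout libraries.

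Genes that regulate or accompany these transporters were taken from 8 lists. Of 103 genes 77 were tested, and of the 77 tested 23 rose and 33 fell, with a median log2 fold change of -0.11. Of all 13558 genes 4013 rose (29.6%) and 3712 fell (27.4%). With both trends removed 12 of the 77 rose and 30 fell, beside 2891 (21.3%) and 2860 (21.1%) of all genes. These shares of all genes are the background for the counts of each list.

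Scaffolds and regulators of NHE3 and CFTR were mixed, with 4 of 13 tested genes higher and 6 lower, Slc9a3r1 and Slc9a3r2 included, and 2 higher and 5 lower with both trends removed. Chp2, a cofactor that sodium-proton exchangers bind, averaged 178 ± 1.00 CPM in Git2-knockout libraries and 257 ± 8.01 CPM in wild-type libraries (SD, n = 3 each), a fall of 0.53 (SE 0.04, Benjamini-Hochberg adjusted p = 2.80e-08 by edgeR). Pdzk1, a PDZ scaffold of the brush border, averaged 399 ± 17.3 CPM in Git2-knockout and 543 ± 8.91 CPM in wild-type libraries and fell by 0.44 (SE 0.04, Benjamini-Hochberg adjusted p = 1.81e-07 by edgeR). With both trends removed the falls were 0.40 and 0.36. Myo6, a motor protein of endocytosis, rose by 0.35 and lay at -0.06 with both trends removed.

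Of the 12 listed genes that control ENaC and its response to mineralocorticoids, 9 fell and 2 rose by read counts, with a median of -0.25. Over all genes 27.4% fell and 29.6% rose. With both trends removed 5 fell and 1 rose, with a median of -0.09, beside 21.1% and 21.3% of all genes. Sgk1, the aldosterone-induced kinase that retains ENaC at the membrane, averaged 320 ± 9.70 CPM in Git2-knockout libraries and 419 ± 5.90 CPM in wild-type libraries, a fall of 0.39 (SE 0.04, Benjamini-Hochberg adjusted p = 4.34e-07 by edgeR), and of 0.42 with both trends removed. The membrane protease St14 fell by 0.32, and the protease inhibitor Spint2, the most abundant gene of the list, fell by 0.31 and lay at 0.05 with both trends removed. Nr3c1, the glucocorticoid receptor, rose by 0.42 and lay at -0.06. The epithelial markers, lower in 7 of 9 genes by read counts, moved with this list, and their part in it was not tested.

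The WNK-SPAK list, which holds the kinases that phosphorylate the Slc12a cotransporters and proteins that bind or degrade those kinases, had 4 of 9 genes higher and 2 lower, with a median of 0.16, and 2 higher and 5 lower with both trends removed, with a median of -0.09. Cul3, the ubiquitin ligase scaffold that degrades WNK kinases, rose by 0.40, and Cab39, a partner of SPAK, by 0.31. Wnk2 fell by 0.28 and Wnk4 by 0.25. With both trends removed Cul3 passed in the opposite direction at -0.09 (Benjamini-Hochberg adjusted p = 0.0358 by edgeR). Cab39 stayed higher at 0.09 (adjusted p = 0.0159), and Wnk2 at -0.34 and Wnk4 at -0.19 stayed lower.

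Receptors and messengers that set secretion through cyclic nucleotides had 5 of 13 genes higher and 5 lower, with a median of 0.22, and 3 higher and 4 lower with both trends removed, with a median of 0.06. Adora2b, an adenosine receptor that activates CFTR, was at 3.52, 2.17 and 2.89 CPM in Git2-knockout libraries and at 8.45, 7.69 and 7.34 CPM in wild-type libraries. It fell by 1.45 (SE 0.15, Benjamini-Hochberg adjusted p = 6.26e-07 by edgeR) and by 1.31 with both trends removed, and no Git2-knockout library came near the wild-type range. Vipr1, a receptor for vasoactive intestinal peptide, averaged 95.9 ± 4.46 CPM in Git2-knockout and 140 ± 4.82 CPM in wild-type libraries and fell by 0.54 (SE 0.05, Benjamini-Hochberg adjusted p = 1.14e-07 by edgeR). Guca2a, the hormone guanylin that acts through guanylate cyclase C, fell by 0.47 by read counts. It passed in the opposite direction at 0.11 with both trends removed (Benjamini-Hochberg adjusted p = 0.00197 by edgeR). Pde3a, a cyclic nucleotide phosphodiesterase, rose by 0.48 and lay at -0.11 with both trends removed.

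Of other chloride channels and the basolateral potassium channels that sustain secretion, 7 of 13 genes fell and 3 rose, with a median of -0.18. Over all genes 27.4% fell and 29.6% rose. With both trends removed 8 fell and 2 rose, with a median of -0.17, beside 21.1% and 21.3% of all genes. Kcnn4, the calcium-activated potassium channel of the basolateral membrane, averaged 15.3 ± 0.90 CPM in Git2-knockout libraries and 26.8 ± 1.91 CPM in wild-type libraries, a fall of 0.81 (SE 0.08, Benjamini-Hochberg adjusted p = 2.66e-07 by edgeR), and of 0.50 with both trends removed. Kcnq1, the cAMP-activated partner channel, fell by 0.38 and by 0.22. Clca1, a secreted goblet cell product, fell by 0.66 and by 0.75. Clcn3, a chloride-proton exchanger of endosomes, rose by 0.49 and by 0.13. Clca4b was the most abundant, at 6266 ± 153 CPM in Git2-knockout and 6126 ± 116 CPM in wild-type libraries (log2 fold change 0.03, Benjamini-Hochberg adjusted p = 0.424 by edgeR), though its reads can be shared with similar copies of the gene.

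**Figure D5:**
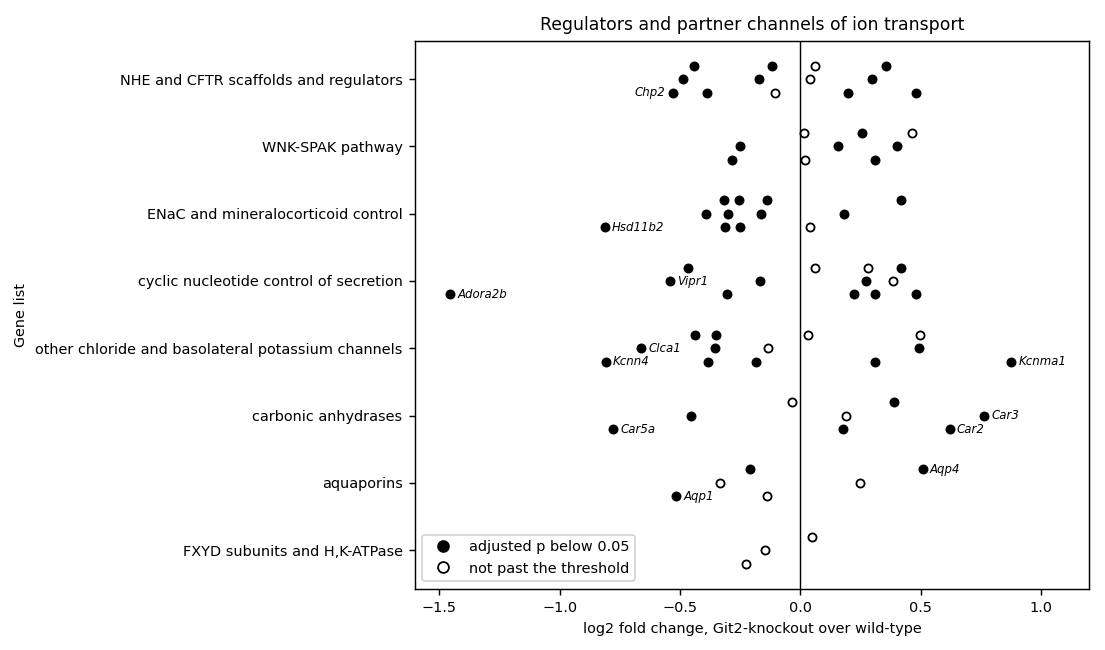
Log2 fold change (Git2-knockout over wild-type) of each tested gene in 8 lists of regulators and partner channels, where filled circles passed the edgeR threshold and open circles did not. Most points of the ENaC list lie left of 0, and Adora2b stands farthest left at -1.45.

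Carbonic anhydrases, which make the bicarbonate that these exchangers carry, had 4 of 8 genes higher and 2 lower, with a median of 0.18, and 2 and 2 with both trends removed. Car8, a member without catalytic activity, averaged 116 ± 4.40 CPM in Git2-knockout and 88.4 ± 1.42 CPM in wild-type libraries and rose by 0.39 (SE 0.05, Benjamini-Hochberg adjusted p = 2.67e-06 by edgeR), lying at -0.05 with both trends removed. Car13, the most abundant per length, rose by 0.18 and lay at -0.01. Car5a, a mitochondrial enzyme, fell by 0.78 and lay at -0.40 with both trends removed (adjusted p = 0.0567). Car9, a membrane enzyme known from hypoxic tissue, fell by 0.46, and Car3, known from muscle and fat, rose by 0.76 (Benjamini-Hochberg adjusted p = 0.000672 and 0.00357 by edgeR). Car3 was at 6.14 ± 1.66 CPM in Git2-knockout and 3.62 ± 0.61 CPM in wild-type libraries, beside the fibroblast markers at 126 to 130 CPM in Git2-knockout and 40.9 to 46.3 CPM in wild-type libraries, whose part in it was not tested.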

How the data were processed

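RNA of 6 libraries was analysed, 3 labelled Git2-knockout and 3 wild-type, grouped by their titles. HISAT, Bowtie2, RSEM and GRCm39 are named in the submitters' processing notes, without versions, and no strand setting is stated there. The deposited table of 18159 genes holds, per the file headers, read counts, taken as estimated counts because 58.9% to 69.2% of values per library were not whole. Per the file headers the authors also deposited FPKM and TPM values, scaled by transcript length. Estimated counts were rounded and tested in R 4.3.3 with edgeR 4.0.16 (filterByExpr, TMM, robust quasi-likelihood, two-sided), with Benjamini-Hochberg adjustment over the 13558 genes that were tested and a threshold of 0.05. CPM are TMM-scaled, and SDs are over 3 libraries. Replicates differed by more than counting noise (chi-square per degree of freedom 1.58 to 7.15 within groups, 29.9 to 42.7 between), and each was counted. The highest values within groups were those of Git2-knockout replicate 1, at 7.15 against replicate 2 and 5.29 against replicate 3. Git2-knockout replicates 2 and 3 gave 1.95. Such a spread cannot show whether the replicates came from different animals or cultures.

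Transcript length was implied from counts and FPKM (FPKM of at least 0.5, 89.7% of tested genes), and GC content came from GENCODE transcripts of GRCm38 (97.9%). Both trends were removed by loess (span 0.5) per library. Alternatives were other scalings, DESeq2 1.42.0, limma 3.58.1 (voom, and trend on log2 of TPM or FPKM with a pseudocount of 1), no filter or 5 CPM in 3 libraries, trends removed, a replicate block, and leaving out each library. The steps were tested on simulated data. The members and lists were chosen with earlier results of these data known. Values are given for called transport genes averaging 1 or more in log2 CPM and the 2 highest in TPM per family, and, per list, for up to 4 called genes with the smallest p and the highest in TPM. A few genes that this rule names are not reported here. Other genes named by their levels were chosen after their values were seen.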

Additional observations from a re-analysis of the deposited data

How the results depend on the processing

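Of the fold changes of 36 transport genes under 19 alternatives, 571 kept their direction and side of the threshold, 32 lost and 19 gained a call, 11 changed sign with a call on at least 1 side, and 33, of 9 genes, changed sign with no call on either. Over all genes limma-trend on log2(TPM + 1) called 5749 rises and 1890 falls, and library totals 4438 and 3240, against 4013 and 3712. Transport genes that rose numbered 5 of 42 with DESeq2 (11.9%), where 3222 rose over all genes. With 5 CPM in 3 libraries required, 6 of 24 rose (25%) and 9 fell (37.5%), and over all genes 3416 rose and 3377 fell. On the TPM scale 5 of 42 fell (11.9%), beside 13.9% of all genes. Genes of the regulator lists that rose numbered 14 without the GC trend and 12 without either trend, and 20 fell on the TPM scale. The counts over all genes were 3092, 2891 and 1890 in that order. On the TPM scale Atp1b1 lay at 0.0176, Slc12a7 at 0.15 and Slc26a3 at 0.20. With the length trend removed Slc12a2 lay at -0.0376 and Slc4a4 at -0.084. With the GC trend removed Slc12a2 lay at -0.003, Slc12a7 at 0.15, and Slc4a2 at 0.15. With both removed Cftr lay at -0.0837, Slc12a2 at -0.20 and Slc4a4 at -0.19. The cause was not tested. Leaving out 1 library gave 3430 to 4082 rises and 3150 to 4261 falls over all genes, 8 to 11 and 9 to 12 among transport genes, and 17 to 22 and 29 to 34 in the regulator lists. Same-numbered libraries did not deviate together (correlations 0.041, -0.001 and 0.05). No shared shift was visible, which cannot show whether the numbers pair the libraries by design. The replicate block gave 3863 rises and 3578 falls over all genes, 11 and 10 among transport genes, and 18 and 32 in the regulator lists. At 16284414 to 19106581 reads per library, depth limits the 10 untested genes and those near 1 CPM.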

Other observations

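Water channels were few and went both ways in these libraries. Aqp1, the aquaporin of capillaries and of some epithelia, averaged 74.6 ± 1.69 CPM in Git2-knockout libraries and 107 ± 5.93 CPM in wild-type libraries (SD, n = 3 each), a fall of 0.52 on a log2 scale (SE 0.05, Benjamini-Hochberg adjusted p = 3.44e-07 by edgeR), and of 0.38 with length and GC trends removed. Endothelial markers were higher in the same Git2-knockout libraries, at 41.8 to 46.4 CPM against 18.0 to 19.3 CPM in wild-type, and their part in the Aqp1 value was not tested. Aqp4, a basolateral water channel, averaged 45.4 ± 1.00 CPM in Git2-knockout and 31.9 ± 0.08 CPM in wild-type libraries, a rise of 0.51 (SE 0.05, Benjamini-Hochberg adjusted p = 6.44e-07 by edgeR) that stood at 0.06 with both trends removed. Of 6 tested aquaporins 1 rose and 2 fell, and the list's median was -0.17, or 0.00 with both trends removed. Of the small FXYD subunits that tune the pump and the proton-potassium pump 3 genes were tested and none passed. Fxyd3 had the highest TPM of them, at 4.82 ± 1.08 CPM in Git2-knockout and 5.63 ± 0.37 CPM in wild-type libraries (Benjamini-Hochberg adjusted p = 0.199 by edgeR).

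The transcript length implied by counts and FPKM reflects which isoforms the authors' program assigned reads to. Of 21 transport genes with at least 5 FPKM, only Slc4a1ap differed by 5% or more without overlap, at 3178, 3194 and 3190 bases in Git2-knockout libraries and 2979, 2987 and 3139 bases in wild-type libraries. The same held for 170 of 7963 genes (2.13%). The expression of Slc4a1ap did not pass the test (log2 fold change -0.04, Benjamini-Hochberg adjusted p = 0.665 by edgeR). This gene was chosen after its values were seen, and the difference in length was not tested.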
